A study of Mus musculus with 2 samples.

Results

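The genes described here are 44 genes of the p53 response and of apoptosis. They are Trp53 and its regulators, genes that p53 is known to switch on, the BCL2 family, and caspases and mitochondrial proteins of apoptosis. They were chosen by gene name, and all 44 of the names were found among the 20647 genes of the deposited table. RNA-seq had been carried out on organoids grown from mouse pituitary, cell clusters that form from tissue in culture. There was 1 library of cystic organoids, at passage 2 of a culture from a male GHCre/iDTR mouse aged 10 weeks, and 1 library of dense organoids, at passage 4 of a culture from a male -/iDTR mouse of the same age. Both carried iDTR and were kept in PitOM medium. By common usage the names denote a Cre driven by the growth hormone gene and a diphtheria toxin receptor that Cre can switch on, but the labels do not spell them out and state no toxin treatment. Organoid type, passage, mouse and genotype differ together between the 2 libraries and cannot be told apart. Each organoid type had a single library, so no test of the conditions could be made, and every difference below describes these 2 libraries. The intervals given cover counting error only.

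The transcription factor p53 is held at low levels by Mdm2, an enzyme that marks it for breakdown and that p53 itself induces. Stress such as DNA damage releases p53, which then switches on genes of cell cycle arrest, DNA repair and cell death. Part of the death response runs through the BCL2 family. In it, BH3-only proteins oppose the protective members (Bcl2, Bcl2l1, Mcl1) and thereby free Bax or Bak1 to open the outer mitochondrial membrane. Cytochrome c (Cycs) then joins Apaf1 to activate Casp9. Several of these proteins are controlled after transcription (p53 by its stability, caspases by cleavage), so transcript levels do not measure their activity.

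The libraries held 17247431 reads for cystic and 19258313 reads for dense organoids, recovered from the deposited values. Values are normalized counts, the reads of a gene divided by the authors' size factor of the library, so 1 read equals 1.05 normalized counts in the cystic library and 0.956 in the dense one. Mitochondrially encoded genes took 0.659% (cystic) and 0.450% (dense) of the reads. The libraries stood far apart in epithelial type. All 5 markers of basal squamous epithelium (Krt5, Krt14, Trp63, Krtdap, Lor) summed to 148 normalized counts in the cystic library and 348985 in the dense one. The simple epithelial markers Krt8, Krt18, Epcam and Cdh1 summed to 102742 (cystic) and 32490.0 (dense). Among genes of the pituitary lineage, Pitx1 had 1276 (cystic) and 5614 (dense) and Sox2 had 2790.1 (cystic) and 3885 (dense), whereas Lhx3 had 172 in the cystic library and no read in the dense one. Markers of hormone cells summed to 3978 (cystic) and 703 (dense). The 4 of them past a mean of 50 normalized counts were each over 4-fold higher in cystic organoids, among them Gh with 1603 (cystic) and 276 (dense), Prl with 1192 (cystic) and 251 (dense) and Pomc with 1021 (cystic) and 146 (dense). Markers of mesenchyme summed to 45.0 (cystic) and 13.4 (dense), those of endothelium to 24.1 (cystic) and 15.3 (dense), and those of immune cells to 49.2 (cystic) and 0.956 (dense), with the immune marker Aif1 at 47.1 in the cystic library. The part that these differences play in the results below was not tested.

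The 44 genes were detected in both libraries and differed in both directions. Reads were found in both libraries for all 44, and 38 had at least 100 normalized counts in each. A filter of a mean of at least 50 normalized counts over both libraries kept 42, leaving out Bik and Bak1. A gene was called when its log2 ratio of cystic over dense, with 1 added to each value, passed 4-fold (a log2 ratio of 2) or 2-fold (a log2 ratio of 1). At 4-fold, 3 of 42 genes were higher in cystic organoids (Gdf15, Ccng1 and Bmf), which is 7.14% against 7.86% of all 11279 genes past the filter. At 4-fold, 2 were higher in dense organoids (Bok and Plk3), which is 4.76% against 7.65% of all genes. At 2-fold, 10 genes (23.8%) were higher in cystic organoids, against 15.7% of all genes. At 2-fold, 7 genes (16.7%) were higher in dense organoids, against 15.6% of all genes. The remaining 25 lay within 2-fold, 16 of them within 1.5-fold.

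The median log2 ratio was 0.29 over the 42 genes and -0.033 over all genes past the filter. The size of the log2 ratio regardless of its sign had a median of 0.80 for the 42 genes and 0.57 for all genes. The log2 ratios of the 42 genes ran from -3.85 for Bok to 4.15 for Gdf15. All 44 genes together took 0.530% of the reads in cystic and 0.414% in dense organoids. Without Ccng1 the order turned: the summed level was 67295 normalized counts in the cystic library and 70615 in the dense one.

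**Figure D1:**
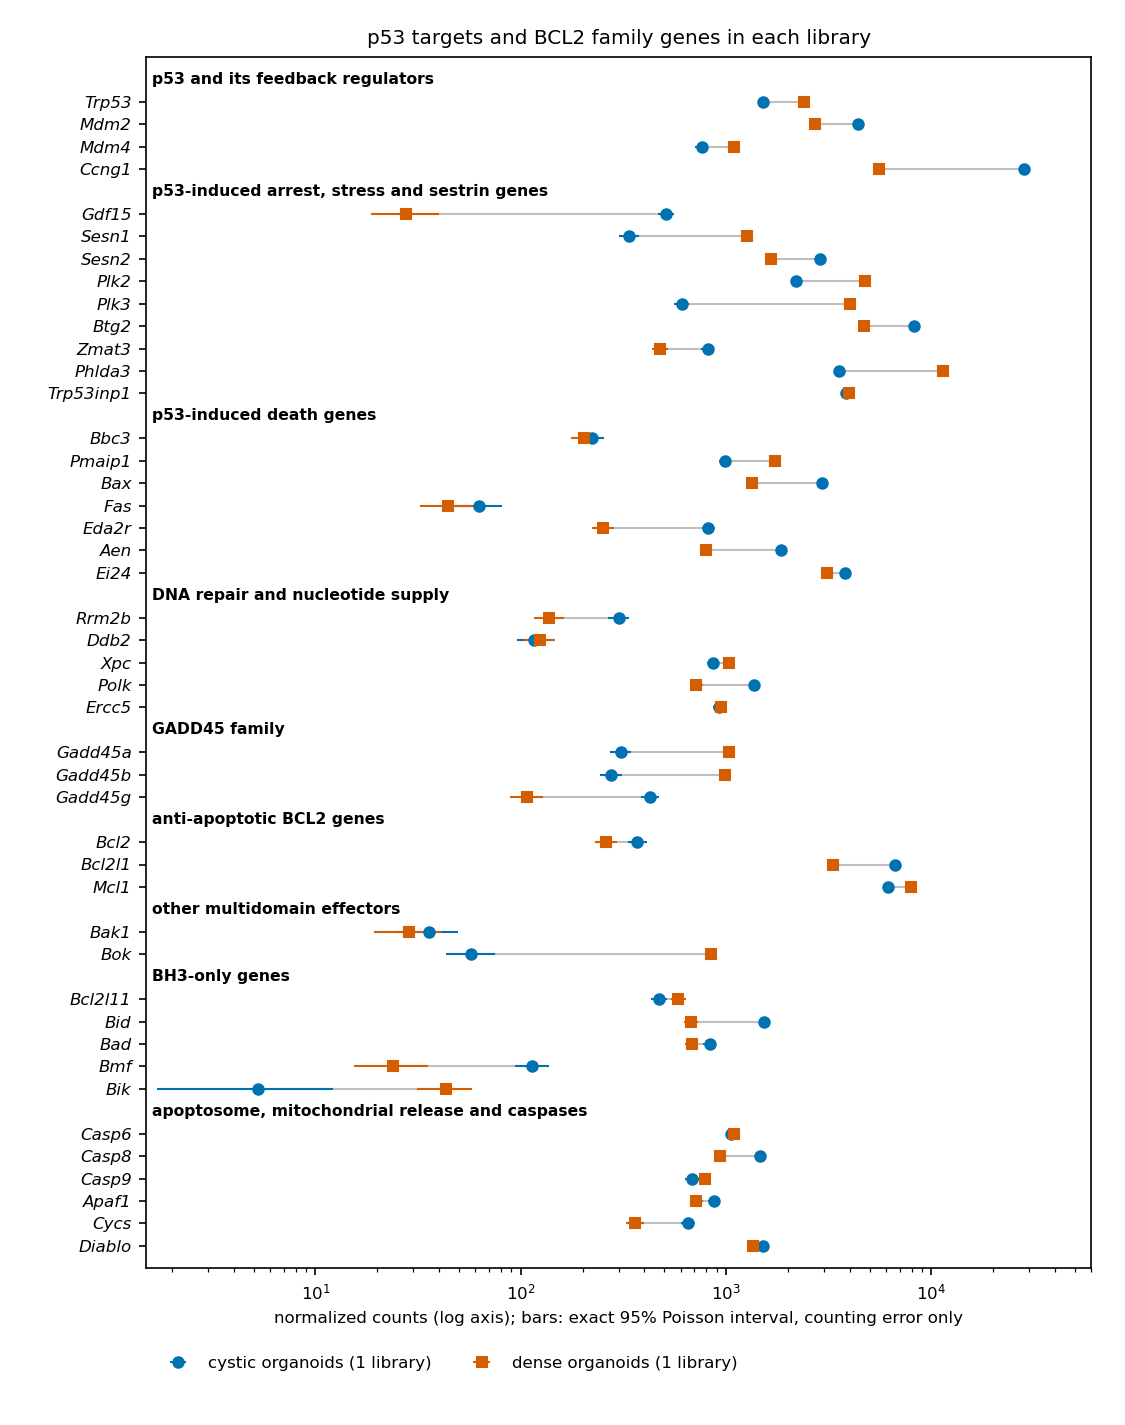
Normalized counts of the 44 genes on a log axis, grouped by role, with circles for the cystic and squares for the dense library (1 library each) and bars for the exact 95% Poisson interval of counting error. Ccng1 was the most abundant gene in cystic organoids and Phlda3 in dense organoids, and 25 of the 42 genes past the filter lay within 2-fold.

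**Figure D2:**
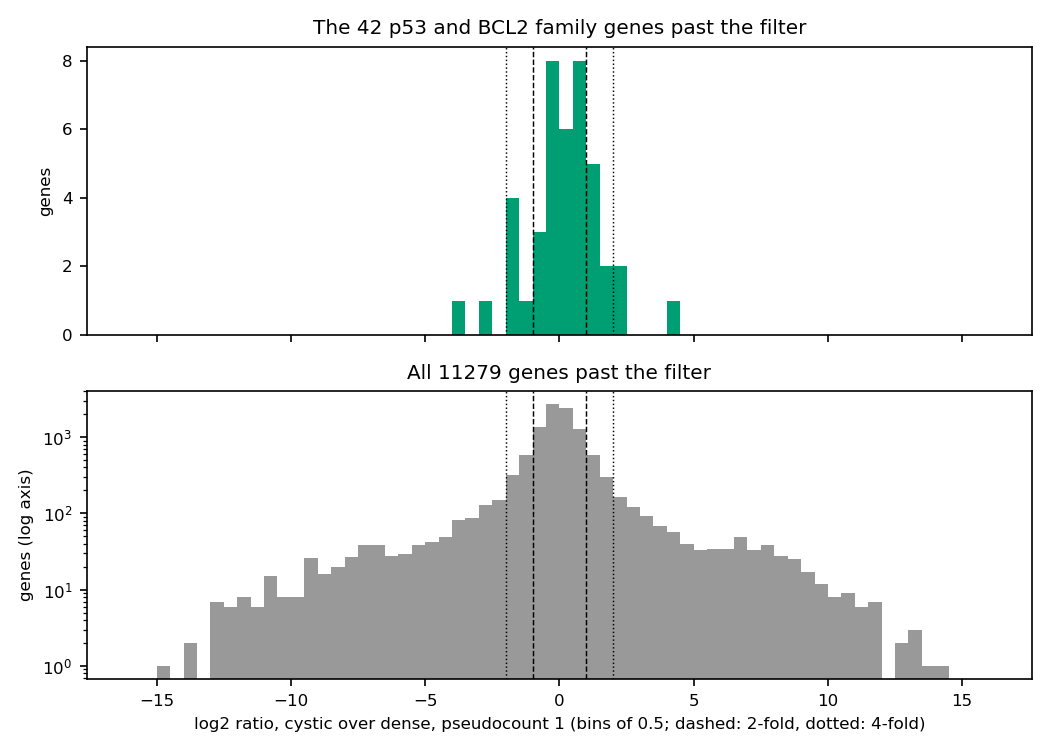
Number of genes by log2 ratio of cystic over dense (pseudocount 1, bins of 0.5), above for the 42 genes past the filter and below, on a log axis, for all 11279 genes past it. The 42 genes spanned -3.85 to 4.15.

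Of the genes that sit around p53 itself, Trp53 and Mdm4 were somewhat lower and Mdm2 and Ccng1 higher in cystic organoids. Trp53 had 1508 normalized counts in the cystic library and 2398 in the dense one, so it was 1.59-fold higher in the dense library (95% counting interval 1.49 to 1.70). Mdm4, a relative of Mdm2 that binds and restrains p53, had 763 (cystic) and 1092 (dense) (1.43-fold higher in the dense library, 1.30 to 1.57). Both genes thus differed in the same direction and by less than 2-fold.

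Mdm2 had 4389 normalized counts in the cystic library and 2718 in the dense one, 1.61-fold higher in the cystic library (1.54 to 1.69). Ccng1 encodes cyclin G1, a p53-induced protein that acts in feedback through Mdm2. It had 28319 normalized counts in the cystic library and 5548 in the dense one, a 5.10-fold difference (4.96 to 5.25). Ccng1 alone made up 29.6% of the summed normalized counts of the 44 genes in cystic and 7.28% in dense organoids.

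The genes that p53 induces for arrest and stress defence were split between the libraries. Of 9 such genes, all past the filter, 1 was past 2-fold towards cystic and 4 towards dense organoids. Over all genes past the filter these shares were 15.7% (cystic) and 15.6% (dense). Gdf15, a secreted stress cytokine of the TGF-beta family, had 508 normalized counts in the cystic library and 27.7 in the dense one. Its 18.3-fold difference (12.6 to 27.7) was the widest of all 44 genes, and it rests on 29 reads in the dense library. Its counting interval overlaps those of Bok and Bik, given below. With a pseudocount of 50 the log2 ratio of Gdf15 was 2.85 and that of Bok was -3.06, so the order of the 2 changed.

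The other genes of this group past 2-fold were higher in dense organoids. Plk3, a polo-like kinase induced by stress, had 608 normalized counts in the cystic library and 4011 in the dense one (6.60-fold higher in the dense library, 6.05 to 7.21). Its relative Plk2 had 2200 (cystic) and 4739 (dense) (2.15-fold higher in the dense library, 2.05 to 2.27). Phlda3, which restrains AKT by competing for membrane lipids, had 3533 (cystic) and 11337 (dense) (3.21-fold higher in the dense library, 3.09 to 3.33), and it was the most abundant of the 44 genes in dense organoids.

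The 2 sestrins, stress-induced brakes on the growth regulator mTORC1, stood in opposite order. Sesn1 had 338 normalized counts in the cystic library and 1258 in the dense one, 3.72-fold higher in the dense library (3.29 to 4.22). Sesn2 had 2875 (cystic) and 1647 (dense), 1.75-fold higher in the cystic library (1.64 to 1.85). The antiproliferative gene Btg2, with 8212 (cystic) and 4709 (dense), was 1.74-fold higher in the cystic library (1.68 to 1.81). The RNA-binding protein gene Zmat3, with 812 (cystic) and 479 (dense), was 1.70-fold higher in the cystic library (1.51 to 1.90). Trp53inp1, a p53 cofactor and autophagy gene, had 3848 normalized counts in the cystic library and 3985 in the dense one, a difference within the counting interval.

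Of the 7 genes that p53 induces for cell death, all past the filter, 3 were past 2-fold towards cystic and 0 towards dense organoids. For all genes past the filter the shares were 15.7% (cystic) and 15.6% (dense). At any size of difference 6 of the 7 were higher in cystic organoids, against 48.2% of all genes past the filter, but for Bbc3 and Fas among these 6 the counting interval includes no difference. Eda2r, a receptor of the TNF receptor family, had 820.2 normalized counts in the cystic library and 251 in the dense one (3.26-fold, 2.83 to 3.77). Aen, a nuclease of apoptotic cells, had 1843 (cystic) and 801 (dense) (2.30-fold, 2.12 to 2.502).

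Bax, the pore-forming BCL2 relative, had 2925 normalized counts in the cystic library and 1339 in the dense one (2.18-fold, 2.05 to 2.33). The pair of p53-induced BH3-only genes did not follow Bax. Bbc3, which encodes PUMA, had 222 (cystic) and 203 (dense), from 212 reads in each library, with a counting interval of 0.900 to 1.33 for the ratio of cystic over dense. Pmaip1, which encodes NOXA, had 982 (cystic) and 1739 (dense) and was 1.77-fold higher in the dense library (1.64 to 1.92). Fas, the death receptor, was low in both, with 62.8 (cystic) and 43.97 (dense), and its counting interval of 0.956 to 2.14 for the ratio of cystic over dense includes no difference. Ei24, a membrane protein gene of the endoplasmic reticulum, had 3779 (cystic) and 3091 (dense) (1.22-fold, 1.17 to 1.28).

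**Figure D3:**
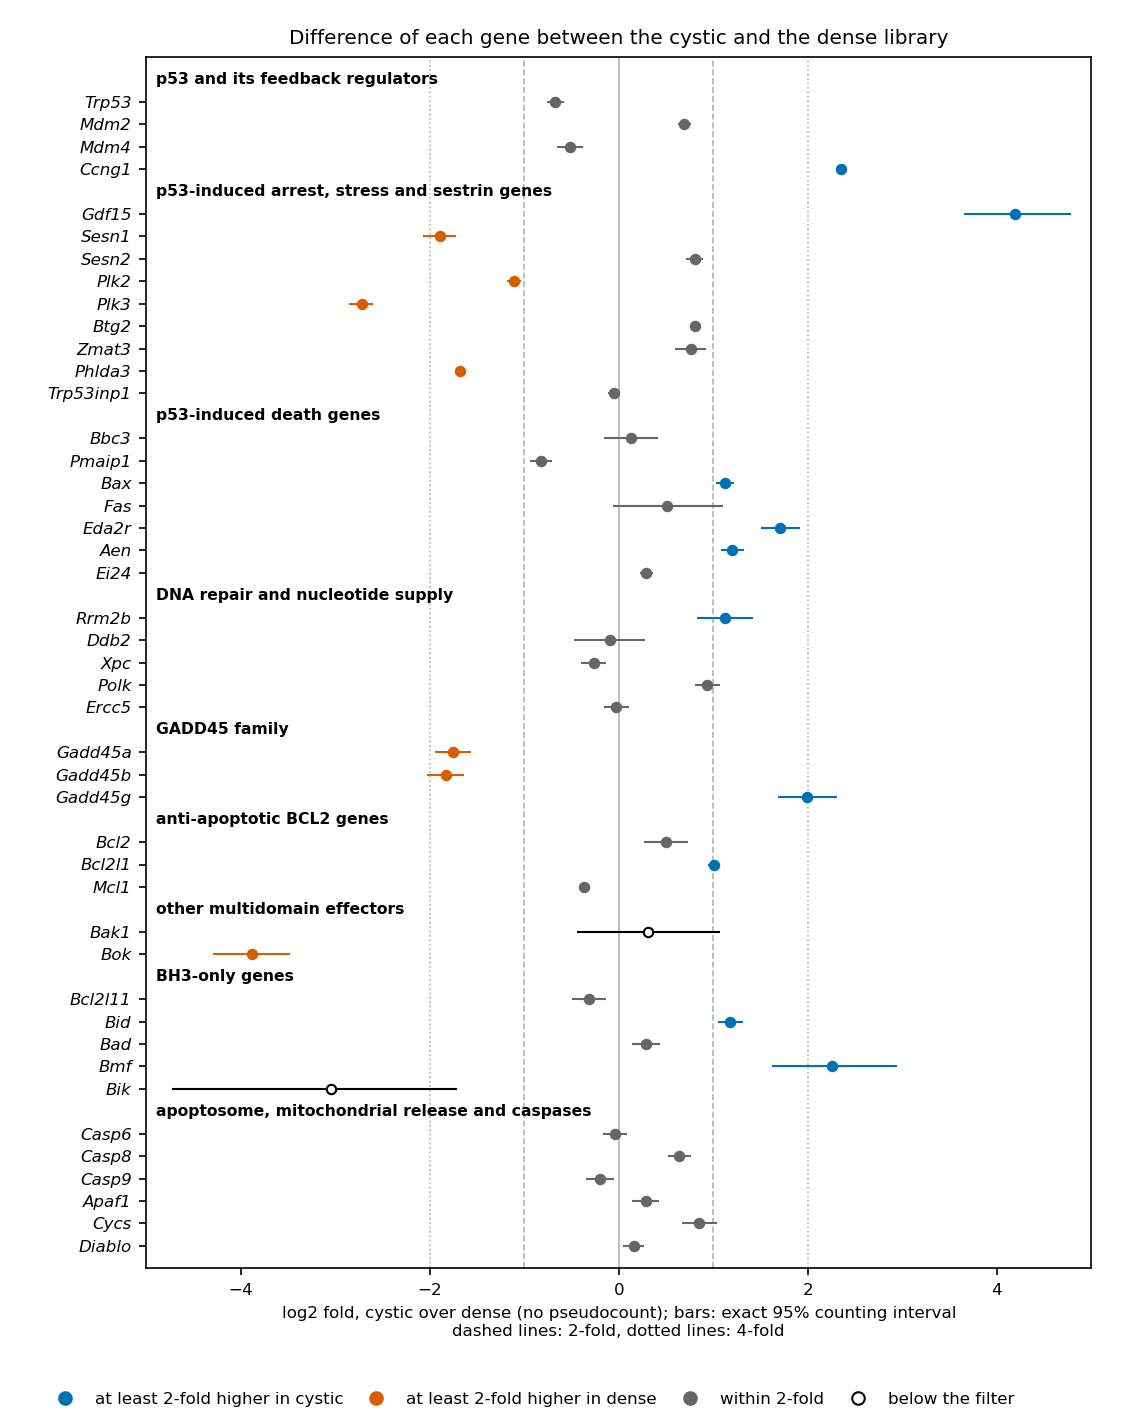
Log2 fold of cystic over dense organoids for each of the 44 genes without a pseudocount, with bars for the exact 95% counting interval, dashed lines at 2-fold and dotted lines at 4-fold. Open points mark Bak1 and Bik, below the filter. Gdf15, Ccng1 and Bmf lay beyond 4-fold towards cystic organoids and Bok and Plk3 beyond 4-fold towards dense organoids.

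Among repair genes, 1 of 5 passed 2-fold, against 31.3% of all genes past the filter in either direction. Rrm2b, the p53-induced subunit of ribonucleotide reductase, had 299 normalized counts in the cystic library and 138 in the dense one (2.17-fold, 1.77 to 2.67). Polk, a polymerase that copies past damaged bases, had 1373 (cystic) and 717 (dense) (1.91-fold, 1.75 to 2.10). The nucleotide excision repair genes lay close together. Ddb2, which finds ultraviolet lesions, had 116 (cystic) and 124 (dense), and Ercc5, the endonuclease XPG, had 928 (cystic) and 943 (dense). Xpc, the other lesion sensor, had 865 (cystic) and 1038 (dense) (1.20-fold higher in the dense library).

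The GADD45 family of small stress proteins, named for growth arrest and DNA damage, was the group in which every member passed 2-fold, in both directions. Over all genes past the filter, 31.3% passed 2-fold one way or the other. Gadd45a, the p53-induced member, had 307 normalized counts in the cystic library and 1032 in the dense one (3.37-fold higher in the dense library, 2.96 to 3.85). Gadd45b had 276 (cystic) and 984 (dense) (3.56-fold higher in the dense library, 3.11 to 4.09). Gadd45g was the reverse, with 426 (cystic) and 107 (dense), 3.98-fold higher in the cystic library (3.22 to 4.95). It lay just under the 4-fold call and passed it, at a log2 ratio of 2.01, when the libraries were scaled by total reads.

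The protective BCL2 genes differed modestly. Bcl2l1, which encodes BCL-XL, had 6675 normalized counts in the cystic library and 3318 in the dense one, 2.01-fold higher in the cystic library, with a counting interval (1.93 to 2.10) that spans the 2-fold line. Mcl1 had 6163 (cystic) and 7970 (dense), 1.29-fold higher in the dense library (1.25 to 1.34). Bcl2 had 369 (cystic) and 261 (dense) (1.42-fold higher in the cystic library, 1.20 to 1.66).

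Levels of different genes were compared per kilobase of exons. On this scale Bcl2 had 40.3 (cystic) and 28.5 (dense), far below Mcl1 with 1803 (cystic) and 2332 (dense) and Bcl2l1 with 1455 (cystic) and 723 (dense) normalized counts per kilobase. In cystic organoids Mcl1 made up 54.7% of the summed per-kilobase level of these 3 genes and Bcl2l1 44.1%. In dense organoids Mcl1 made up 75.6% and Bcl2l1 23.5%. The order in the cystic library depended on the length used: with the longest transcript in place of all exons, Bcl2l1 made up 58.4% and Mcl1 40.5%, while in dense organoids Mcl1 stayed above Bcl2l1 with 63.7% against 35.3%.

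Among the pore-forming genes the level per kilobase of exons was highest for Bax, then Bok, then Bak1, in both libraries. Bax had 1856 (cystic) and 849.7 (dense) normalized counts per kilobase, Bok, a more distant relative of the pair, had 31.3 (cystic) and 459 (dense), and Bak1 had 14.8 (cystic) and 11.9 (dense). In normalized counts, not per length, Bok had 57.5 (cystic) and 845 (dense), so it was 14.7-fold higher in the dense library (11.2 to 19.7), from 55 reads in the cystic library. Bak1 had 35.6 (cystic) and 28.7 (dense), from 34 (cystic) and 30 (dense) reads, with a counting interval of 0.737 to 2.10 for the ratio of cystic over dense. About 25.5% of the exon length of Bak1 overlaps a gene on the other strand in GENCODE, and whether reads were counted by strand is not given in the sources used here.

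Of the other BH3-only genes, 2 of 4 past the filter were past 2-fold towards cystic organoids, against 15.7% of all genes past it. Bmf, which is held at the cytoskeleton until released, had 114 normalized counts in the cystic library and 23.9 in the dense one (4.77-fold, 3.07 to 7.69), from 25 reads in the dense library. Bid, which death receptors activate through Casp8, had 1526 (cystic) and 674 (dense) (2.27-fold, 2.07 to 2.48). Its exons overlap those of Bcl2l13 on the other strand over 17.7% of their length, and Bcl2l13 was higher in dense organoids. Bcl2l11, which encodes BIM, had 472 (cystic) and 586 (dense) (1.24-fold higher in the dense library, 1.10 to 1.41), and Bad had 833 (cystic) and 679.6 (dense) (1.23-fold, 1.11 to 1.36). Bik, below the filter, had 5 reads in cystic and 45 in dense organoids, a ratio of dense over cystic of 8.22 (3.27 to 26.5).

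**Figure D4:**
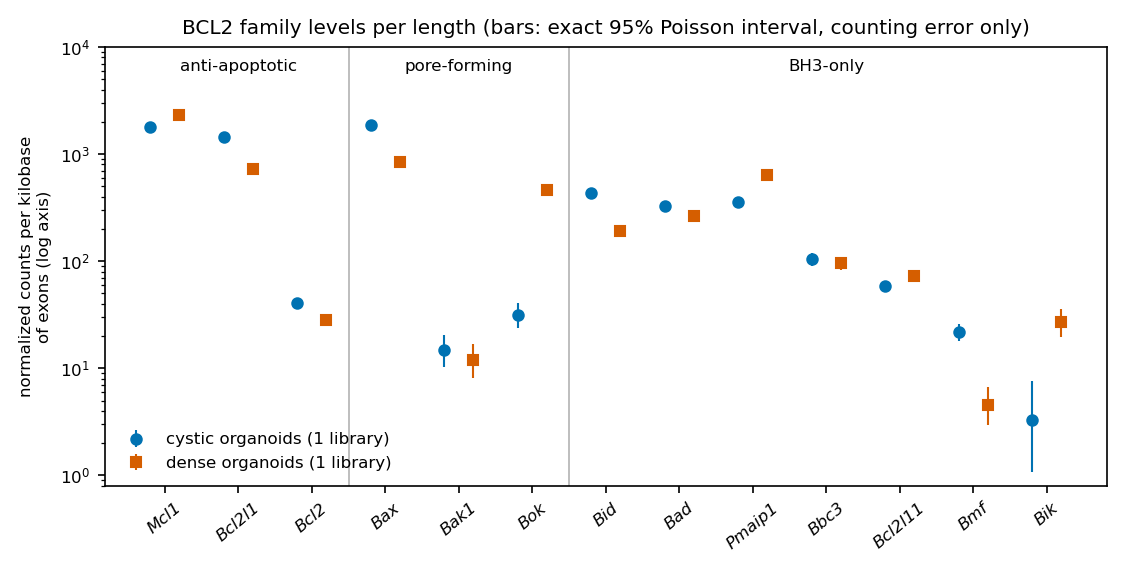
Normalized counts per kilobase of exons on a log axis for 13 BCL2 family genes, with circles for the cystic and squares for the dense library (1 library each) and bars for the exact 95% Poisson interval. Mcl1, Bcl2l1 and Bax were the highest in both libraries, and Bok had 31.3 (cystic) and 459 (dense).

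Among the caspases, Apaf1, Cycs and Diablo, none of the 6 genes passed 2-fold either way, against 31.3% of all genes past the filter. Their log2 ratios ran from -0.20 for Casp9 to 0.85 for Cycs. Cycs had 650 normalized counts in the cystic library and 359 in the dense one (1.81-fold, 1.59 to 2.06), but 2 processed copies carry its name in GENCODE and its reads may be shared with them. Casp8, the initiator caspase of death receptors, had 1458 (cystic) and 935 (dense) (1.56-fold, 1.44 to 1.69).

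Apaf1 had 873 normalized counts in the cystic library and 717 in the dense one, a 1.22-fold difference (1.10 to 1.35). Casp9 had 685 (cystic) and 788 (dense), 1.15-fold higher in the dense library (1.04 to 1.28). The effector caspase Casp6 had 1058 (cystic) and 1087 (dense), within the counting interval. Diablo, which frees caspases from their inhibitors, had 1504 (cystic) and 1350 (dense) (1.11-fold, 1.03 to 1.20), and 42.8% of its exon length overlaps other genes. Exon overlap with a gene on the other strand was 23.8% for Ddb2, 20.5% for Bad and 19.1% for Gadd45a. For Bax it was 12.2%, on the same strand. Smaller overlaps were found for Rrm2b, Ei24, Bcl2, Casp9 and Plk3. Trp53 and Mdm4 each have 1 pseudogene that carries their name.

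The promoters were examined for the p53 consensus decamer, the 10-base unit of which p53 binds a pair, because genes that share this factor differed in both directions. The window ran from 250 bases before to 50 bases after the start in RefSeq (GRCm38.p6), and 37 of the 44 genes had an entry. Sites outside this window, in introns or further upstream, were not searched. The decamer reads the same on both strands, so each match counts for both. At least 1 exact decamer was found for 10 of 37 genes (27.0%), against 9.55% of all 27025 genes with an entry. Many of the 44 genes are p53 targets by choice, so the share describes them and tests nothing. A pair of decamers up to 13 bases apart, with the 4 core bases exact in both and at most 1 mismatch in all, was found for none of the 37 and for 0.470% of all genes. With the mismatch allowed in the core as well, a setting chosen after seeing the data, 3 of the 37 (8.11%) held a pair (Bax, Ccng1 and Polk), against 1.24% of all genes. In Ccng1 the second member of the pair is the exact decamer, with no base between. Of the 10 genes with a decamer, 4 were past 2-fold towards cystic organoids (Ccng1, Bax, Aen, Bmf), 2 towards dense organoids (Sesn1, Gadd45a) and 4 within 2-fold (Mdm2, Trp53, Ei24, Polk). Of the 26 others with an entry and past the filter, 5 were past 2-fold towards cystic and 5 towards dense organoids. Over all genes past the filter the shares were 15.7% (cystic) and 15.6% (dense). A match is a description of the letters, and no binding was measured. The full windows of Ccng1 and Sesn1 are shown as examples of a gene higher in cystic and a gene higher in dense organoids, 5′ to 3′ in the direction of the gene, with the decamer in capitals. Sesn1 has 2 starts in the RefSeq table, and the window of the other start held no decamer. Bmf and Polk likewise have further starts whose windows held no decamer.
Ccng1 promoter, chr11:40755237-40755536, minus strand: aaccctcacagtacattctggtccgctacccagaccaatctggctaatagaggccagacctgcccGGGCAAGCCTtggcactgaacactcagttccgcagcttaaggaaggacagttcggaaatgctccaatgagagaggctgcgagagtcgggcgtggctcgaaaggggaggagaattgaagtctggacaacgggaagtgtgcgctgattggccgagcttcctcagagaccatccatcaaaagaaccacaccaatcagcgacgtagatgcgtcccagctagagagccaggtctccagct
Sesn1 promoter, chr10:41887189-41887488, plus strand: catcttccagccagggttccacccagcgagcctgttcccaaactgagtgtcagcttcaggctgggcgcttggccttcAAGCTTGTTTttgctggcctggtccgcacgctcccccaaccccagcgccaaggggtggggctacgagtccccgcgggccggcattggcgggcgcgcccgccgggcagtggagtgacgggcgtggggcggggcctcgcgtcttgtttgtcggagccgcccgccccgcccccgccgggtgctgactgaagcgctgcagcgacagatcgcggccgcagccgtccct

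For the other 4 genes that held a decamer and passed 2-fold, and for Mdm2 and Trp53 as the core of the feedback loop, the decamer is shown in capitals with 20 bases on either side, from the same source and in the direction of the gene. Bax, Aen and Bmf were higher in cystic organoids, Gadd45a in dense organoids, and Mdm2 and Trp53 lay within 2-fold.
Bax, chr7:45467070-45467119, minus strand: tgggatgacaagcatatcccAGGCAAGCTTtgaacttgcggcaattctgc
Aen, chr7:78895917-78895966, plus strand: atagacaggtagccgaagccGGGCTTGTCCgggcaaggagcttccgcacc
Bmf, chr2:118544771-118544820, minus strand: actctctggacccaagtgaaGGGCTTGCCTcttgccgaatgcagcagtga
Gadd45a, chr6:67037418-67037467, minus strand: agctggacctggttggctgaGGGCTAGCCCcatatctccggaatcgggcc
Mdm2, chr10:117710915-117710964, minus strand: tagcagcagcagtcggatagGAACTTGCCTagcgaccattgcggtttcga
Trp53, chr11:69580264-69580313, plus strand: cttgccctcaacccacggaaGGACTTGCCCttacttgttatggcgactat

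Further genes of the pathway were taken from lists put together by function. Among 14 relatives, kinases and cofactors of p53, all past the filter, 1 was past 2-fold towards cystic and 2 towards dense organoids. The shares over all genes past the filter were 15.7% (cystic) and 15.6% (dense). Both listed genes past 2-fold towards dense organoids were p53 relatives. Trp63, the p53 relative of stratified epithelium, had 60.7 normalized counts in the cystic library and 16344 in the dense one, a log2 ratio of -8.05. Trp73 had no read in cystic and 334 normalized counts in dense organoids. Against a floor of 3 reads it was 106-fold higher in the dense library, and the lower counting limit of the fold was 86.0. Proteins of this family bind motifs like that of p53. Whether Trp63 bears on the genes above was not tested.

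The kinases and cofactors lay closer together. Trp53bp2, a p53-binding protein that favours death genes, had 1468 normalized counts in the cystic library and 552 in the dense one (2.66-fold, 2.41 to 2.93). The checkpoint kinase gene Chek2 had 434 (cystic) and 854 (dense), and Usp7, which removes ubiquitin from Mdm2 and p53, had 1923 (cystic) and 2738 (dense). The other 9 genes of this list lay within 2-fold.

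A list of 41 other p53 targets held genes at both extremes. Of 38 past the filter, 7 were past 4-fold towards cystic and 7 towards dense organoids, with 10 each way at 2-fold and a median log2 ratio of 0.14. Of all genes past the filter, 7.86% (cystic) and 7.65% (dense) passed 4-fold, and 15.7% (cystic) and 15.6% (dense) passed 2-fold. Sfn, the epithelial 14-3-3 sigma gene, had 512 normalized counts in the cystic library and 20726 in the dense one, and Perp, a desmosome gene, had 9241 (cystic) and 101016 (dense). Dram1, an autophagy gene, had 6.28 (cystic) and 945 (dense), and Ndrg1 had 270 (cystic) and 7730 (dense). Higher in cystic organoids were Ephx1, an epoxide hydrolase gene, with 48397 (cystic) and 6822 (dense) (7.09-fold, 6.92 to 7.27), and Ano3, of the anoctamin family, with 1512 (cystic) and 12.4 (dense) (122-fold, 70.9 to 229). Cdkn1a, the p21 arrest gene, is added here with its values already seen: it had 2734 normalized counts in the cystic library and 4799 in the dense one, a log2 ratio of -0.81.

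Of 12 other BCL2 family genes, 6 passed the filter, 1 of them past 2-fold towards cystic and 2 towards dense organoids. The shares over all genes past the filter were 15.7% (cystic) and 15.6% (dense). Bcl2l14 had 140 normalized counts in the cystic library and no read in the dense one. Against the same read floor as for Trp73 it was 48.9-fold higher in the cystic library, and the lower counting limit of the fold was 39.2. Bcl2l13 had 1159 (cystic) and 2663 (dense), and the mitophagy genes Bnip3 and Bnip3l had 898 (cystic) and 1827 (dense), and 2191 (cystic) and 4226 (dense). Bcl2l2, a protective relative, was low in both libraries at 89.97 (cystic) and 45.9 (dense).

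Of 28 other caspases, caspase inhibitors and death receptor genes, 24 passed the filter, 5 of them past 2-fold towards cystic and 2 towards dense organoids. For all genes past the filter these shares were 15.7% (cystic) and 15.6% (dense). The inflammatory caspase gene Casp1 had no read in cystic and 135 normalized counts in dense organoids. Against the same read floor as for Trp73 it was 42.9-fold higher in the dense library, and the lower counting limit of the fold was 34.5. Casp12 was the reverse, with 178 (cystic) and 1.91 (dense), from 2 reads (93.0-fold, 25.4 to 774). The adaptor gene Cradd had 558 (cystic) and 94.6 (dense), and Dffb, the nuclease that cuts DNA in dying cells, had 21.97 (cystic) and 159 (dense). The most abundant genes, the receptor gene Tnfrsf1a with 3015 (cystic) and 3354 (dense) and the Casp8 inhibitor gene Cflar with 2274 (cystic) and 2895 (dense), lay within 2-fold.

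Of 20 other excision repair and translesion genes, all past the filter, 0 passed 4-fold, 2 were past 2-fold towards cystic and 1 towards dense organoids. Of all genes past the filter, 15.5% passed 4-fold either way. At 2-fold the shares were 15.7% (cystic) and 15.6% (dense). The listed gene past 2-fold towards dense organoids was Polh, a polymerase that copies past ultraviolet damage. It had 57.5 normalized counts in the cystic library and 184 in the dense one. Rrm2, the cell cycle counterpart of Rrm2b, had 2064 (cystic) and 950.1 (dense) (2.17-fold, 2.01 to 2.35), and the nuclease gene Ercc4 had 677 (cystic) and 329 (dense) (2.06-fold, 1.80 to 2.35). Rev3l had 271 (cystic) and 521 (dense). Ddb1, the partner of Ddb2, had 10845 (cystic) and 9242 (dense), and Rrm1 had 3282 (cystic) and 3243 (dense).

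**Figure D5:**
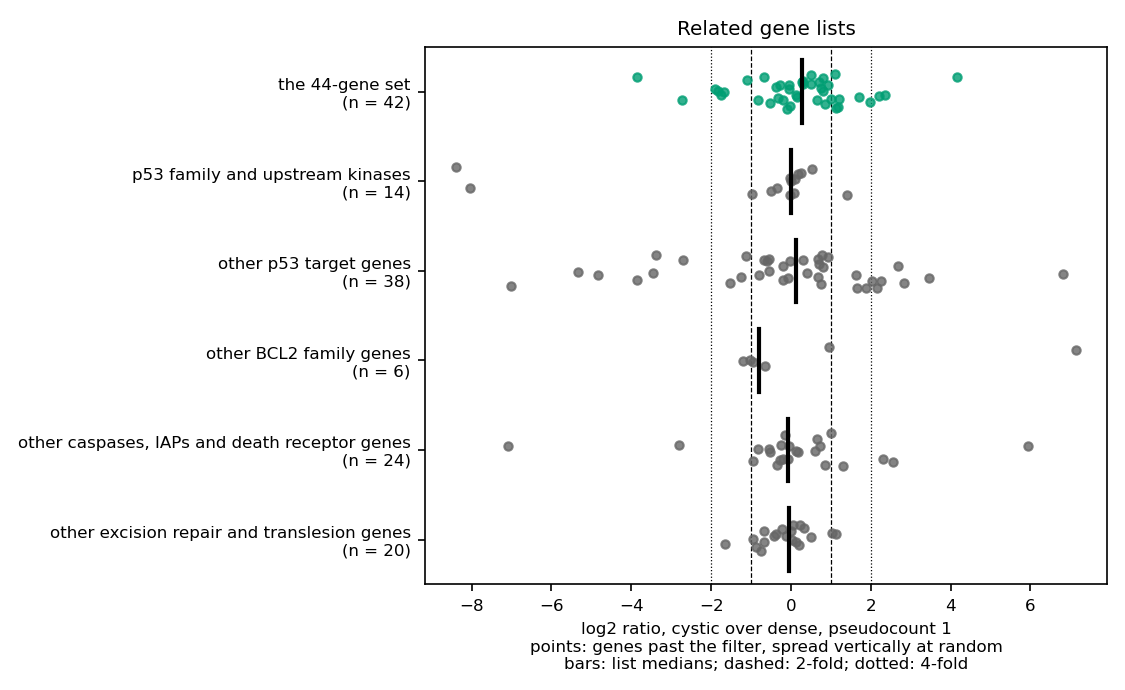
Log2 ratio of cystic over dense organoids (pseudocount 1) for the genes past the filter in the 44-gene set and in 5 related lists, with a point for each gene and a bar at each median. The 42 genes ranged from -3.85 to 4.15, while Trp73, Trp63, Casp1 and Dram1 lay below -7 and Bcl2l14 above 7.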

How the data were processed

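The authors deposited 1 table with 1 normalized read signal per gene and library. The tools TopHat and DESeq (1.32.0) and the genome build mm9 are named, without their roles, per the submitters' processing notes. The read counter and gene annotation were not given in the sources used here. Smart-seq v4 amplification came before an NEBNext DNA library kit, per the labels' protocols, and without molecular identifiers reads are not independent molecules. In each column 100% of values were whole multiples of the smallest value above 0, within 0.001 read, so whole reads were recovered as signal divided by that value. The 2 spike-in rows (0 reads in cystic and 2 in dense organoids) were left out.

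The 44 genes, their roles and the related lists were chosen with earlier results of these data known. Log2 ratios are of cystic over dense with a pseudocount of 1, and folds are given without one. Genes needed a mean of at least 50 normalized counts, and calls were made at 4-fold and 2-fold. Intervals at 95% are exact Poisson intervals for levels and exact Clopper-Pearson intervals for folds. A count of 0 was taken to allow 3 reads, 3.14 (cystic) or 2.87 (dense) normalized counts. The code was tested on simulated counts. All of the 44 genes may be named; from each related list, the 4 largest ratios and the 2 highest means. Exon lengths and overlaps came from GENCODE M21 (GRCm38), not from the authors' build, and no coordinate of the deposited table was used. Tools were Python 3.11.15, scipy 1.17.1, and edgeR 4.0.16 in R 4.3.3 for the trimmed mean of M-values (TMM). Alternatives were other pseudocounts, filters, scalings and gene lengths.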

Additional observations from a re-analysis of the deposited data

How the results depend on the processing

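No call for the 44 genes changed direction under the pseudocounts of 0.5, 10 and 50, the filters and the scalings by total reads, upper quartile and TMM, and every count of calls stayed within 1.5 times its value in the report. The scalings moved the median of all genes by less than 0.1 on the log2 scale, and the median of the 42 genes ran from 0.26 with a pseudocount of 50 to 0.32 with total reads, with a mean of 0.18. Calls near a threshold did move. Bmf fell short of 4-fold with a pseudocount of 10 (log2 ratio 1.87), Gadd45g passed 4-fold with total reads (2.01) and TMM (2.00), and Rrm2b (0.90) and Bcl2l1 (0.998) fell short of 2-fold with a pseudocount of 50. With no filter Bik added 1 gene at 4-fold and at 2-fold in favour of dense organoids. Bik itself fell short of 4-fold with a pseudocount of 10 (log2 ratio -1.80) and of 2-fold with a pseudocount of 50 (-0.75). When the whole counting interval had to lie past the threshold, 2 genes passed 4-fold towards cystic and 2 towards dense organoids, and 8 passed 2-fold towards cystic and 7 towards dense organoids. Ercc5, near no difference, changed sign with total reads (0.0050). Levels per kilobase moved beyond their counting interval for 60 of 88 values with the longest transcript. No paired analysis was possible because each group has 1 library; for the same reason no count test between the conditions was run on the recovered reads. Depth limits Fas, Bak1, Bik, Bmf, Bok and Gdf15, which had between 5 and 60 reads in at least 1 library.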
